A study of Sus scrofa with 207 samples.

Results

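The proteasome genes of pig muscle were taken as every gene measured by a probe set whose only symbol starts with PSMA, PSMB, PSMC, PSMD, PSME, PSMF or PSMG. This gave 40 of the 6765 genes that the array measured with a single symbol, covered by 46 probe sets, and for each gene the probe set with the highest mean over all arrays was used. The samples were muscle collected at slaughter from 207 crossbred pigs of 1 commercial cross, written Pix(DLxDE) in the labels, at a mean end weight of 110 kg, with 1 Affymetrix Porcine Genome Array per animal. All animals formed 1 group, with no treatment or control; the labels used here give no sex, sire, age or slaughter day. Each animal had a drip loss, the share of weight that a piece of the longissimus muscle lost while hanging in the cold, and all but 8 had a fat area measured over that muscle. Drip loss ran from 1.45 to 10.82% (SD 2.22%) and fat area from 8.1 to 26.7 cm2 (SD 3.15 cm2), so every comparison below is a slope of log2 expression per SD of a trait across animals.

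The proteasome degrades proteins that have been tagged with ubiquitin. Its barrel-shaped 20S core is built of alpha rings, which form the gate, and beta rings, which hold the cutting sites, and the 19S cap on its ends binds tagged proteins, removes the ubiquitin and unfolds them into the core with its ATPases. In immune signalling, inducible beta subunits replace the constitutive catalytic ones and an activator made of PSME1 and PSME2 can take the place of the cap, which changes the peptides made for display on MHC class I molecules. In muscle the proteasome is known for its part in the turnover of myofibrillar proteins.

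Skeletal muscle markers were present: 7 of 10 listed genes were measured, 0 of them lay below the table median of 6.10 log2 units, and their mean over the list ran from 13.6 to 13.8 across animals. A set of 24 arrays, called low-correlation arrays below, resembled the rest less, and drip loss averaged 4.2 ± 1.55% in the animals they came from (SD, n = 24) and 5.53 ± 2.25% (SD) in the remaining animals. A further check found 13 arrays without signal from the poly-A spike-in controls. The numbers in the sample titles, whose meaning the labels do not give, form a lower series and, after a gap, a higher series of 33 animals and were also grouped into 10 blocks of 100 numbers. These blocks held between 5.21% (PSMB8) and 21.9% (PSMD6) of the variance of a proteasome gene. Random blocks would also hold some share, which was not computed, so the lower values do not by themselves show a block effect. Muscle is a mix of cells, and fewer cells of a type and less RNA per cell cannot be told apart in these samples.

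All 40 genes had a mean above the table median, and 0 of their values sat at the floor of 4 log2 units. The table median is over all probe sets, while each gene was taken by its probe set of highest mean. The share of all genes above it is not given here, so the count is not read as particular to the family. The SD over animals had a median of 0.221 log2 units for the 40 genes and 0.248 for all genes. It was lowest for the cap ATPase PSMC5, at 0.133, and highest for the inducible catalytic subunits PSMB8, at 0.474, and PSMB10, at 0.407. The median spread of the proteasome genes was thus close to that of all genes, with the inducible pair as the widest. PSMB8 and PSMB10 also had means of 6.87 and 7.19, near the table median of 6.10. Outside this pair the distance from lowest to highest value reached 2.44 log2 units, for PSMD12. Each probe set has its own scale, so the order of the genes by level is not read here, and the table median serves only as a rough mark of detection.

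**Figure D1:**
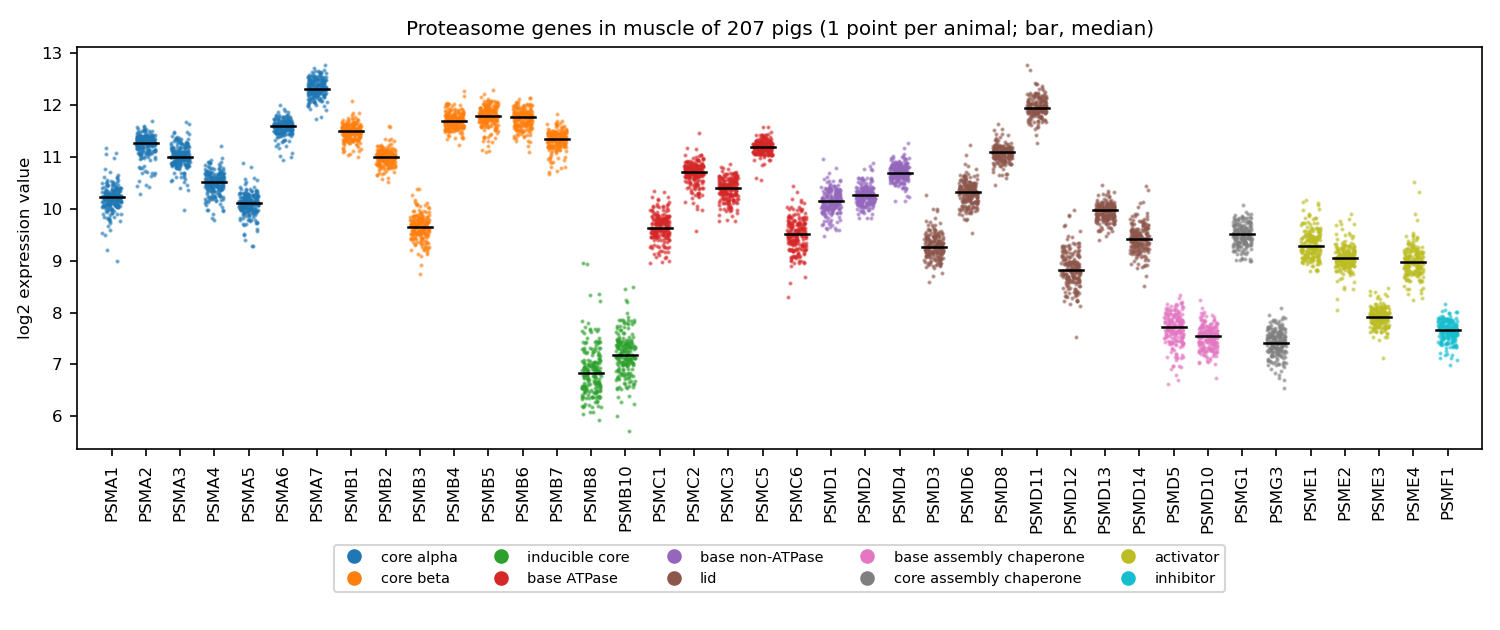
Log2 expression value (vertical axis) of each proteasome gene (horizontal axis) in the 207 animals, 1 point per animal, with the median as a bar and the subgroup as colour. The points of PSMB8 and PSMB10 spread most (SD 0.474 and 0.407) and those of PSMC5 least (SD 0.133); heights of different genes are not comparable.

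With higher drip loss 4 of the 40 proteasome genes rose and 0 fell, by limma with Benjamini-Hochberg adjustment over all 23935 probe sets. Over all probe sets 4.61% passed in either direction, 1.94% rising and 2.67% falling; with 1 probe set per gene 6.08% of the 6765 genes passed, 3.96% rising and 2.11% falling. The difference between these shares and that of the proteasome genes was not tested. The 4 genes were the core subunit PSMB7, the cap ATPases PSMC3 and PSMC5 and the ubiquitin receptor PSMD4. A positive slope was found for 29 of the 40 genes, or 72.5%, and for 4127 of all 6765 genes, and the median slope was 0.019 log2 units per SD, against 0.0080 over all genes. At an unadjusted p under 0.05 there were 15 of 40 genes with a positive slope, or 37.5%, and 1 with a negative slope, or 2.50%, against 15.8% and 8.04% of all genes.

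PSMB7, which carries the trypsin-like cutting site (NCBI gene 100037992), had values from 10.68 to 11.83 with a median of 11.35. In the 69 animals with the lowest drip loss (up to 4.05%) its mean was 11.27 ± 0.19 (SD), and in the 69 with the highest (from 6.63%) it was 11.36 ± 0.17. The groups overlapped over most of their range. The slope was 0.052 ± 0.012 log2 units per SD of the trait (SE, n = 207, limma adjusted p = 0.0072), or 3.65% per SD. Pearson's r with drip loss was 0.283 and Spearman's rho 0.284.

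PSMC3, a ring ATPase of the cap base (NCBI gene 100512454), ran from 9.76 to 10.86 with a median of 10.40. Its mean was 10.32 ± 0.22 in the 69 animals of lowest drip loss and 10.43 ± 0.20 in the 69 of highest, with ranges of 9.76 to 10.67 and 9.96 to 10.86 that overlapped over most of their length. It had the steepest slope of the 40 genes, 0.058 ± 0.014 log2 units per SD (SE, n = 207, limma adjusted p = 0.0083). PSMC5, another ATPase of the same ring (NCBI gene 397043), ran from 10.56 to 11.58 with a median of 11.19. Its means in the same animals were 11.14 ± 0.14 and 11.22 ± 0.13. Its lowest value lay among the animals of low drip loss and was found on a low-correlation array. Its slope was 0.038 ± 0.0092 (SE, n = 207, limma adjusted p = 0.0080), and it was positive within 10 of 10 blocks.

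PSMD4, a cap subunit that binds ubiquitin chains (NCBI gene 733583), ran from 10.16 to 11.27 with a median of 10.70. Its means at low and at high drip loss were 10.64 ± 0.18 and 10.72 ± 0.15, and the ranges overlapped. The slope was 0.038 ± 0.011 (SE, n = 207, limma adjusted p = 0.033). Within blocks the slope was positive in 9 of 10 for PSMC3 and PSMD4 and in 8 of 10 for PSMB7. It was also positive in 9 of 10 for PSMA6, PSMB2, PSMB4 and PSMB6, which did not pass. The slopes of all 4 genes that passed were positive in both number series. For PSMB7 the slope was 0.046 in the lower and 0.090 ± 0.030 (SE) in the higher, and for PSMC3 0.052 and 0.080 ± 0.030. For PSMC5 it was 0.040 and 0.020 ± 0.016, and for PSMD4 0.038 and 0.052 ± 0.033. The 4 genes were chosen by their slope over these same animals, so the signs within blocks and series give no separate support.

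The calls, and to some extent the slopes, moved with the covariates and the arrays in the fit. With blocks as a covariate 0 of 40 passed, the lowest adjusted p being 0.068, for PSMC5; the slopes were 0.042 for PSMB7, 0.039 for PSMC3, 0.033 for PSMC5 and 0.037 for PSMD4, and 0.623% of all probe sets passed. Without the 24 low-correlation arrays PSMB7 (slope 0.036, adjusted p = 0.046) and PSMC5 (0.035, adjusted p = 0.017) passed, while PSMC3 had a slope of 0.043 (adjusted p = 0.090) and PSMD4 of 0.034 (adjusted p = 0.084), and 0.831% of all probe sets passed. With 5 principal components as covariates the slopes were smaller, 0.019 for PSMB7, 0.018 for PSMC3, 0.022 for PSMC5 and 0.024 for PSMD4, and 0 passed. With blocks and without the low-correlation arrays together they were 0.027, 0.027, 0.028 and 0.032, and 0 passed. With the 3' to 5' control difference as a covariate PSMD4 had a slope of 0.035 and an adjusted p of 0.066, and the other 3 passed. On those arrays the 4 genes had lower means: PSMB7 had a mean of 11.12 ± 0.32 (SD, n = 24) against 11.35 ± 0.14 (SD) on all other arrays, PSMC3 10.20 ± 0.29 against 10.40 ± 0.19, PSMC5 11.11 ± 0.20 against 11.20 ± 0.12 and PSMD4 10.62 ± 0.27 against 10.71 ± 0.14. The part of these arrays and of the blocks in the slopes was not tested further. Leaving out the 13 arrays without spike-in signal gave a count of 4. Among the markers of other cell types, 1 of 11 lymphocyte markers passed for drip loss (CCL5, slope 0.076 ± 0.025, SE, n = 207, limma adjusted p = 0.04995), with 11 of 11 slopes positive, and 1 of 8 endothelial markers (ENG, slope -0.068 ± 0.022, adjusted p = 0.047), with 5 of 8 slopes positive. CCL5 had an adjusted p of 0.124 with blocks and 0.368 without the low-correlation arrays, and ENG of 0.203 and 0.139. With the mean of the immune markers as a covariate the count was 4.

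**Figure D2:**
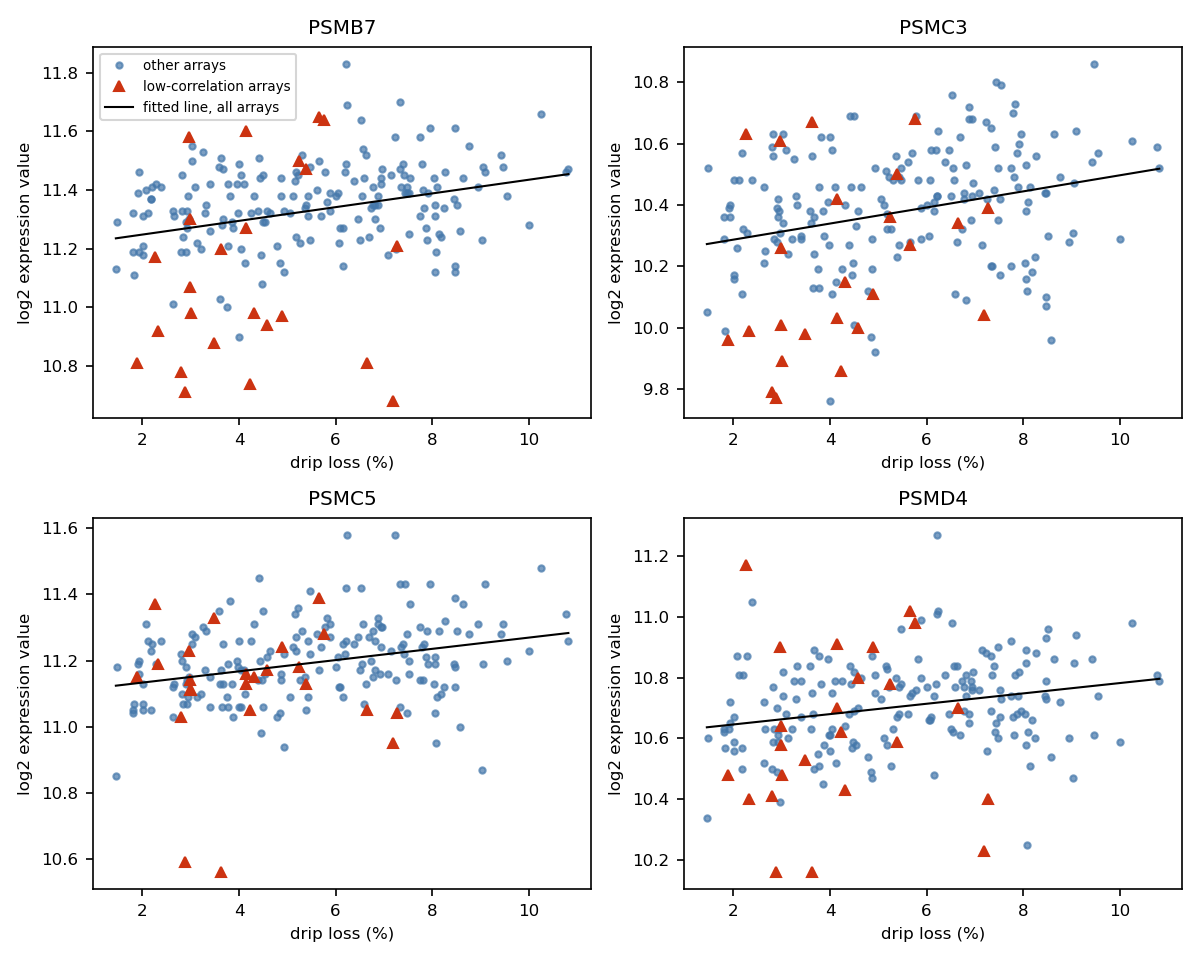
Log2 expression value (vertical axis) against drip loss in percent (horizontal axis) for PSMB7, PSMC3, PSMC5 and PSMD4, 1 point per animal, with the 24 low-correlation arrays as triangles and the fitted line over all 207. The lines rise by 0.052, 0.058, 0.038 and 0.038 log2 units per SD of drip loss, and many triangles lie low at low drip loss.

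In the 20S core 13 of 14 constitutive subunits had a positive slope on drip loss, with a median of 0.026 log2 units per SD. Of the 14, 1 passed the test. Over all 6765 genes 4127 slopes were positive. The 14 genes varied together, with a median r of 0.48 over their pairs, so they do not give 14 separate signs. The alpha ring subunits PSMA1 to PSMA7 had slopes from -0.0029 (PSMA1) to 0.033 (PSMA2), and 0 of 7 passed. Among the beta ring subunits PSMB1 to PSMB7 all 7 slopes were positive, from 0.0054 (PSMB3) to 0.052 (PSMB7). Of the other catalytic subunits, PSMB6, with the caspase-like site, ran from 11.09 to 12.14 with a median of 11.77, and its slope of 0.036 ± 0.012 (SE, n = 207) had a limma adjusted p of 0.072. PSMB5, with the chymotrypsin-like site, ran from 11.09 to 12.29 with a median of 11.79. Its slope was 0.030 ± 0.014 (adjusted p = 0.207). The median slope of the 14 core genes moved with the setting. It was 0.022 with blocks as a covariate (12 of 14 positive) and 0.018 without the low-correlation arrays (12 of 14). With both together it was 0.015 (12 of 14), and with 5 principal components 0.0093 (11 of 14). With the 3' to 5' control difference as a covariate it was 0.028 (14 of 14).

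In the 19S cap 10 of 15 subunits had a positive slope, with a median of 0.015, given below for the base and the lid. In the base, which holds the ATPases PSMC1, PSMC2, PSMC3, PSMC5 and PSMC6 and the scaffold or receptor subunits PSMD1, PSMD2 and PSMD4, 7 of 8 slopes were positive with a median of 0.036, and 3 passed. In the lid, which holds the deubiquitinating subunit PSMD14 together with PSMD3, PSMD6, PSMD8, PSMD11, PSMD12 and PSMD13, 3 of 7 were positive with a median of -0.0049, and 0 passed. The lid slopes ran from -0.029 (PSMD6) to 0.032 (PSMD8, adjusted p = 0.068). The sign of the lid median turned with the setting: it was 0.0081 with blocks as a covariate (4 of 7 positive), 0.0048 without the low-correlation arrays (4 of 7) and 0.013 with 5 principal components (5 of 7), where the base had medians of 0.031, 0.027 and 0.021. No test set the base against the lid. PSMC4 and PSMD7 had no probe set of their own symbol alone.

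Of the remaining genes 0 passed for drip loss. The base assembly chaperones PSMD5 and PSMD10 had slopes of -0.014 and -0.020, and the core assembly chaperones PSMG1 and PSMG3 of 0.026 and 0.039. The activator PSME4, which opens the core without ubiquitin or ATP, had the most negative slope of the 40 genes, -0.052 ± 0.020 (SE, n = 207, limma adjusted p = 0.107). Its values ran from 8.25 to 10.51 with a median of 8.97. The highest value lay among the 69 animals of lowest drip loss and was found on a low-correlation array. The nuclear activator PSME3 had a slope of 0.0053, PSME1 of -0.023, PSME2 of 0.025 and the inhibitor PSMF1 of 0.012.

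For fat area 0 of the 40 proteasome genes passed in either direction, where 0.121% of all probe sets did, 0.046% rising and 0.0752% falling, and 0.148% of genes with 1 probe set each did, 0.0296% rising and 0.118% falling. At an unadjusted p under 0.05 there was 1 of 40, or 2.50%, against 7.94% of all genes. It was PSMD10, a chaperone of base assembly also known as gankyrin, with values from 6.74 to 8.25, a median of 7.54 and a slope of 0.034 ± 0.016 log2 units per SD (SE, 207 animals less the 8 without the trait, limma adjusted p = 0.674). Positive slopes numbered 22 and negative ones 18, with a median of 0.0025. The slopes were 0.0061 ± 0.013 for PSMB7 (adjusted p = 0.964), -0.020 ± 0.015 for PSMC3 (0.841), -0.013 ± 0.0098 for PSMC5 (0.837) and -0.0018 ± 0.012 for PSMD4 (0.992). The slopes of PSMB5 and PSMB6 were 0.0091 ± 0.014 (adjusted p = 0.946) and -0.0042 ± 0.013 (adjusted p = 0.978). The 95% intervals of the 40 slopes, each taken alone, reached from -0.074 (PSMB8) to 0.067 (PSMG3) log2 units per SD. They were not adjusted for the number of genes, so this range is no joint bound on the 40 slopes. The count stayed at 0 under every alternative run.

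With both traits in 1 fit, in the animals that had both, the drip loss slope minus the fat area slope was 0.049 ± 0.013 for PSMC5 (SE, limma adjusted p = 0.051) and 0.073 ± 0.020 for PSMC3 (adjusted p = 0.062). It was 0.044 ± 0.017 for PSMB7 (adjusted p = 0.238) and 0.039 ± 0.016 for PSMD4 (adjusted p = 0.251). Among all probe sets 83 passed this test and 0 of the 40 proteasome genes did, so a difference between the traits was not shown for any of them.

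**Figure D3:**
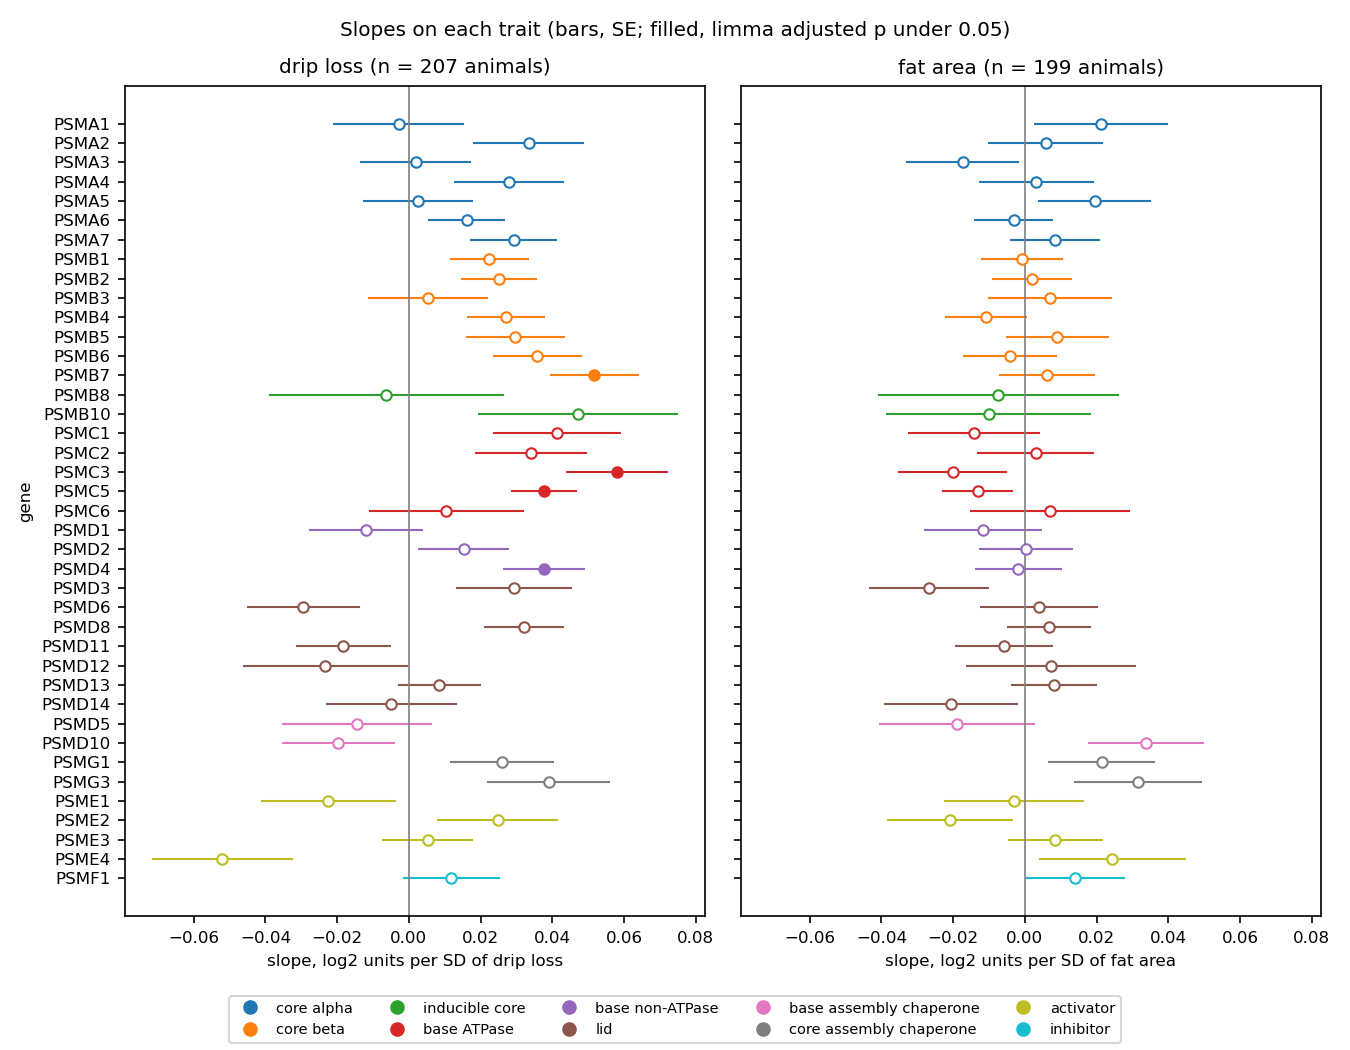
Slope of log2 expression per SD of drip loss (left, 207 animals) and of fat area (right, 8 animals fewer) on the horizontal axes for each proteasome gene (vertical axis), with SE bars; colour gives the subgroup and filled points had a limma adjusted p under 0.05. PSMB7, PSMC3, PSMC5 and PSMD4 are filled for drip loss and 0 genes for fat area.

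Pairs of subunits had higher correlations across animals than pairs of genes in general. Over the 780 pairs of proteasome genes the median Pearson's r was 0.24, and 16.8% of pairs were above 0.5, against a median of 0.0059 and 1.43% over all 22879230 pairs of genes on the same arrays. The 91 pairs within the 20S core had a median r of 0.48, those within the 19S cap 0.28 and the 210 pairs between core and cap 0.35. The pairs of all genes were not matched to the proteasome genes by expression level. All pairs share the same 207 arrays, so these values describe the libraries and carry no p. The order of the 3 medians differed after the first 5 principal components were taken out: core 0.55, cap 0.46 and between 0.43. Without the low-correlation arrays they were 0.43, 0.27 and 0.32, and with values centred within blocks 0.49, 0.31 and 0.36. With quantile normalization they were 0.40, 0.21 and 0.25, and 24.8% of the cap pairs were negative, against 9.52% in the main setting.

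The mean of the 14 core genes and the mean of the 15 cap genes had an r of 0.745 and a rho of 0.684, and an r of 0.741 without the low-correlation arrays. The core mean ran from 10.59 to 11.60 across animals with an SD of 0.136. The beta subunits PSMB1 and PSMB2 followed the mean of the other core genes most closely, with r of 0.831 and 0.801, and PSMB7 had 0.796 and the alpha subunit PSMA6 0.787. PSMB3, a structural beta subunit, had the lowest r of the core, 0.294, and also the highest r of the 40 genes with the excess of 3' over 5' signal of the control transcripts, 0.446. The part of RNA quality in this was not tested. In the cap, the lid subunit PSMD8 was closest to the core mean, at 0.744.

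Single pairs crossed the borders of the assemblies. The highest r of the 780 was 0.854, between the base scaffold PSMD1 and the lid deubiquitinase PSMD14, followed by 0.809 between PSMB7 and PSMD8 and 0.806 between the alpha subunit PSMA3 and PSMD14. After these values were seen, 2 sets of 5 genes were read from the leading pairs. PSMB1, PSMB2, PSMB4, PSMB7 and PSMD8 had pairwise r from 0.621 to 0.809, and PSMA3, PSMC6, PSMD1, PSMD12 and PSMD14 from 0.522 to 0.854. Between the sets the 25 pairs had a median r of 0.176 and none exceeded 0.344. Each set holds both core and cap genes, and both carry no test since the values chose them. The most negative pair was PSMC6 with PSME1, at -0.353.

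**Figure D4:**
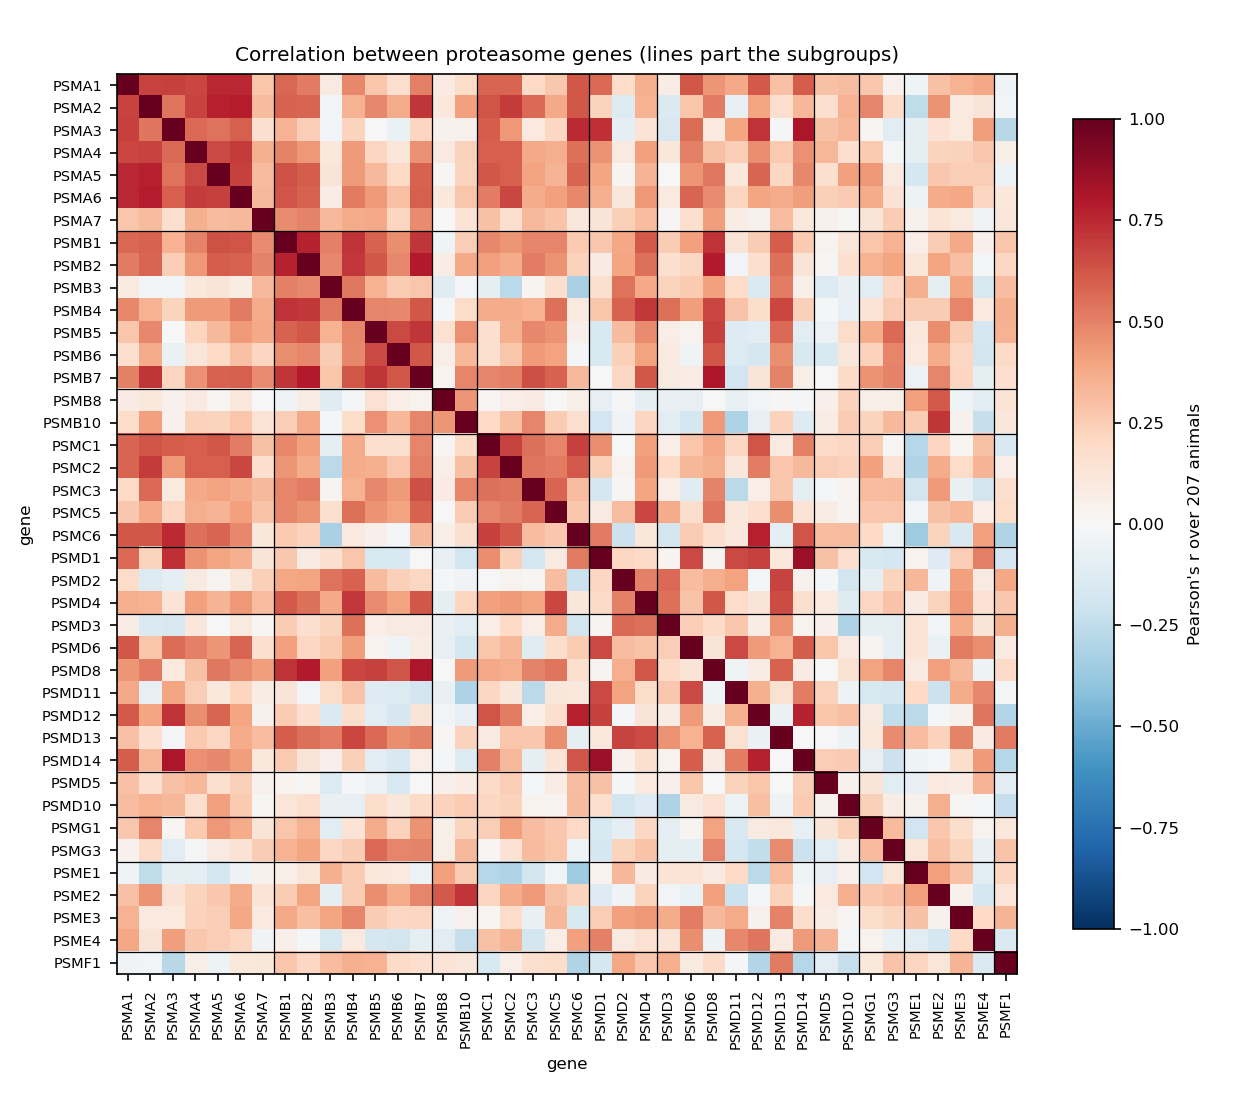
Pearson's r over the 207 animals between each pair of the 40 proteasome genes, on both axes in the order of the subgroups, which lines part; red is positive and blue negative. Pairs within the 20S core have a median of 0.48, and the rows of PSMB8 and PSME1 are pale against the core.

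Where a gene had several probe sets, their agreement varied. The 2 other probe sets of PSMC2 had r of 0.780 and 0.819 with the one used, and that of PSMD1 had 0.759. For PSMD11 the values were 0.389 and 0.221, and for PSMF1 0.168, so results for these last genes depend on the probe set. The drip loss slope of PSMD11 was -0.018 ± 0.013 (SE) with the probe set used and 0.031 ± 0.029 and 0.019 ± 0.020 with the others. That of PSMF1 was 0.012 ± 0.014 with the one used and 0.062 ± 0.028 with the other (limma adjusted p = 0.201).

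Outside the family, the 10 genes most like the core mean had r from 0.658 to 0.697, against a median of 0.052 over 6725 genes. They were ENY2, LOC100515118, SOD1, SEM1, SUPT4H1, TMEM258, SNRPD3, LOC100157391, ATP6V0E1 and RPL7L1. SEM1, at 0.686, is itself a small subunit of the cap lid whose symbol lies outside the rule used here.

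The inducible genes followed the constitutive core weakly or unevenly, as some constitutive subunits also did. PSMB8, which takes the place of PSMB5 (NCBI gene 396975), ran from 5.93 to 8.95 with a median of 6.84, and PSMB10, which takes the place of PSMB7 (NCBI gene 733626), from 5.72 to 8.50 with a median of 7.19. The activator subunits PSME1 and PSME2 ran from 8.80 to 10.17 and from 8.04 to 9.90. With the 14 constitutive core genes, PSMB8 had r from -0.124 to 0.153 and PSME1 from -0.255 to 0.355, while PSMB10 and PSME2 reached 0.489 and 0.486. With the core mean, r was 0.060 for PSMB8, 0.016 for PSME1, 0.355 for PSMB10 and 0.401 for PSME2. The lid subunits PSMD3 and PSMD11 had 0.127 and 0.164, and PSMB3 had 0.294 with the other core genes, so a low r was not particular to the inducible genes. PSMB9, which takes the place of PSMB6, had no such probe set either.

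Among themselves and with 11 genes of antigen processing, these 4 genes were tested in a family of 50 correlations (n = 207, two-sided permutation tests with 100000 resamples, Benjamini-Hochberg adjusted). All 6 pairs among the 4 passed. The highest was PSMB10 with PSME2, with r of 0.718 and rho of 0.625 (adjusted permutation p = 1.7e-05 and 1.8e-05, from the smallest p the permutations can give); r was 0.683 without the 2 animals farthest from the PSMB10 median, 0.729 in the lower and 0.689 in the higher series. PSMB8 with PSME2 had r of 0.614 and rho of 0.485, and PSMB8 with PSMB10 0.440 and 0.344. PSME1 with PSME2, which form 1 ring and lie near each other in the reference gene table with 1 coding gene between them, had r of 0.411, which was 0.616 without the low-correlation arrays. PSMB10 with PSME1 was the weakest at 0.254, with 0.403 without those arrays and 0.041 in the higher series.

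With the antigen-processing genes PSMB8, PSMB10 and PSME2 had positive Pearson correlations that passed for 10 of 11 each. The exception was CIITA, a regulator of MHC class II genes. With PSMB8 it had an r of 0.119 (adjusted permutation p = 0.094), while its rho of 0.144 passed (adjusted permutation p = 0.042). With this many animals a weak correlation passes: the smallest r that did was 0.170, and of all other genes on the array 12.5% had a positive r of at least that size with PSMB8, 28.1% with PSMB10 and 30.4% with PSME2. The median r over the 11 genes was 0.52 for PSMB8, 0.28 for PSMB10 and 0.42 for PSME2, against 0.036, 0.059 and 0.059 over all other genes. Of the 11, 8 lay above the 95th percentile of all genes for PSMB8, 2 for PSMB10 and 6 for PSME2. PSMB8 with TAP1, a subunit of the transporter that carries peptides into the endoplasmic reticulum, had r of 0.746 and rho of 0.665 (adjusted permutation p = 1.7e-05 and 1.8e-05). It was 0.710 without the 2 animals farthest from the PSMB8 median, 0.764 in the lower and 0.634 in the higher series and 0.780 without the low-correlation arrays. PSMB8 and TAP1 are direct neighbours in the reference gene table. PSMB8 with B2M, the light chain of MHC class I, had r of 0.629, PSME2 with B2M 0.671, and PSMB8 with the interferon-induced regulator IRF1 0.561.

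PSME1 was closest to TAPBP, which helps to load peptides onto MHC class I, with r of 0.704 and rho of 0.621 (adjusted permutation p = 1.7e-05 and 1.8e-05); r was 0.683 without the 2 farthest animals and 0.711 and 0.570 in the 2 number series. For PSME1 8 positive and 1 negative correlation passed, where 23.9% of all other genes had a positive and 18.2% a negative r of at least 0.170 in size, and 5 of the 11 lay above the 95th percentile. The negative one was with the chaperone CANX, at -0.195, and was -0.092 with values centred within blocks. In the higher series alone some pairs were near 0, such as PSME1 with SLA-3, at -0.047, and PSMB10 with TAPBP, at -0.082, which was 0.226 over all animals.

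Markers of immune cells moved with these genes. The mean of the 20 lymphocyte and macrophage markers measured had r of 0.576 with PSMB8, 0.589 with PSME2, 0.401 with PSMB10 and 0.309 with PSME1. The highest values among the other proteasome genes were 0.295 for PSMD10 and 0.259 for PSMD8, so PSME1 was not set apart. No value over all genes is given here. The lists differed: the lymphocyte mean had r of 0.491 with PSMB8, 0.229 with PSME2 and 0.092 with both PSMB10 and PSME1, and the macrophage mean 0.411 with PSMB8, 0.566 with PSME2, 0.420 with PSMB10 and 0.312 with PSME1. Of 18 listed lymphocyte markers 11 were measured, with a mean from 5.16 to 6.29 across animals and 9 of them below the table median, and of 13 macrophage markers 9 were measured, with a mean from 6.18 to 8.79 and 2 below it. With PSMB7, PSMC3, PSMC5 and PSMD4 the lymphocyte mean had r between -0.053 and 0.044 and the macrophage mean between 0.051 and 0.252. The skeletal muscle mean had r of 0.351 with PSMD4 and 0.238 with PSMB7, and the fibroblast mean 0.193 with PSMB7 and 0.172 with PSMC3; their r with drip loss was -0.019 and 0.095. The part of immune cells in the correlations of the inducible genes was not tested.

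**Figure D5:**
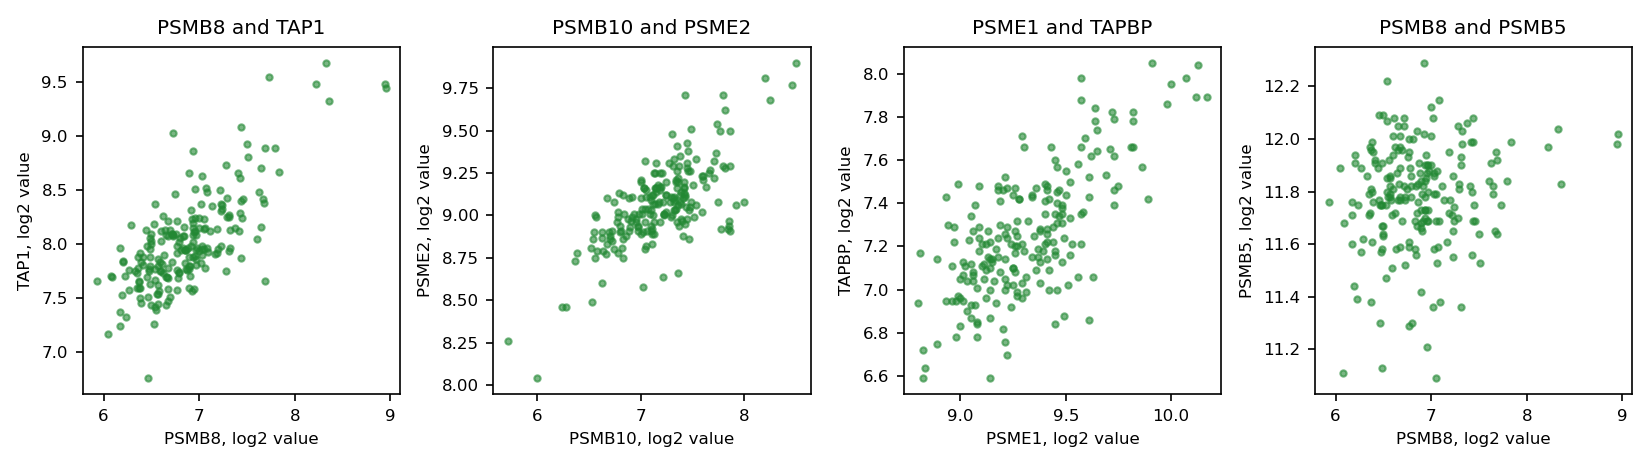
Log2 expression values of PSMB8 and TAP1, PSMB10 and PSME2, PSME1 and TAPBP, and PSMB8 and PSMB5 on the horizontal and vertical axes, 1 point per animal (n = 207). The first 3 pairs rise together (r of 0.746, 0.718 and 0.704), and PSMB8 and PSMB5 form a cloud with no clear slope.

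The inducible genes did not pass for either trait. PSMB8 had a slope of -0.0063 ± 0.033 on drip loss (SE, n = 207, limma adjusted p = 0.946) and -0.0074 ± 0.034 on fat area (SE, adjusted p = 0.987). PSMB10 had 0.047 ± 0.028 on drip loss (adjusted p = 0.350) and -0.010 ± 0.029 on fat area (adjusted p = 0.975). The log ratio of PSMB8 to PSMB5, the inducible over the constitutive subunit of the same site, varied with an SD of 0.486 across animals. Its r with drip loss was -0.074 and its rho -0.061 (permutation p = 0.287 and 0.379, adjusted p = 0.849 and 0.937 over 4 relations), and r was -0.087 once the 2 animals of most extreme drip loss were left out. In the lower and higher series r was -0.096 and -0.108. The log ratio of PSMB10 to PSMB7 had r of -0.013 with drip loss (permutation p = 0.855), and with fat area the ratios had r of -0.034 and -0.046 (permutation p = 0.637 and 0.518). With the immune marker mean as a covariate the first relation was -0.157 (permutation p = 0.024, adjusted p = 0.095).

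Other genes of the pathway were few on the array with a single symbol. Of all 6765 such genes 6.08% passed for drip loss, 3.96% rising and 2.11% falling. The counts below were not tested against these shares. Of 26 listed genes for ubiquitin and its shuttles 7 were measured and 0 passed for drip loss, and of 11 genes for proteasome assembly and its transcription 4 were measured and 0 passed. Of 11 ubiquitin ligases and partners known in muscle 6 were measured, and 1 rose: STUB1, a ligase that works with chaperones, with values from 9.30 to 11.12, a median of 10.45 and a slope of 0.054 ± 0.015 (SE, n = 207, limma adjusted p = 0.023). STUB1 had an adjusted p of 0.165 with blocks as a covariate and 0.356 without the low-correlation arrays. The atrophy ligase FBXO32 had a slope of -0.088 ± 0.060, which did not pass. Of 17 listed antigen-processing genes 11 were measured and 0 passed. For fat area 0 genes of these lists passed, where 0.148% of all genes did. The slopes were negative for 10 of 11 antigen-processing genes, with a median of -0.038 and a lowest limma adjusted p of 0.628. They were negative for 4 of 6 muscle ligases, 2 of 7 ubiquitin genes and 2 of 4 assembly genes, and for 3596 of all 6765 genes. All 8 endothelial markers had negative slopes on fat area, and 0 passed, the lowest limma adjusted p being 0.072, for PECAM1.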

How the data were processed

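Total RNA of 207 muscle samples was labelled as cRNA and hybridised to Affymetrix Porcine Genome Arrays by the authors, with GCOS 1.1.1 and PLIER named in the submitters' processing notes. The deposited log2 expression values, 1 per probe set and array, have a floor at 4; scaling between arrays is not given in the sources used here, and the values were used as deposited (array medians from 5.96 to 6.18). Precision is limited by how many arrays there are. Of all probe sets, 188 controls were left out and 23935 tested. Gene symbols came from the platform annotation, and all 40 proteasome genes were found by gene number in the reference gene table.

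With limma 3.58.1 (lmFit, eBayes; R 4.3.3) a linear model of each probe set on each trait, divided by its SD, was fitted; p-values are two-sided and Benjamini-Hochberg adjusted over the whole table, and 0.05 was the threshold. Drip loss and fat area came from the labels; 8 animals had no fat area. Arrays were called low-correlation where their median correlation with the rest fell more than 3 scaled MAD under the typical value. Correlations of single genes used 100000 permutations. Full statistics are given for members that passed and for the catalytic subunits, and non-members are the 10 closest to the core mean. Alternatives were quantile normalization, a filter on low values, other ways of taking 1 value per gene, blocks, left-out arrays or animals, 5 principal components, normal scores, the other trait, 3' to 5' control differences, immune markers and eBayes with trend. The pipeline was tested on simulated data. The members and lists were chosen with earlier results of these data known. The series' design text gives 1 array per pig, so replicates are animals.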

Additional observations from a re-analysis of the deposited data

How the results depend on the processing

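The count of proteasome genes passing for drip loss, 4, stayed from 3 to 6 under 11 of 15 alternatives: it was 6 with the filter on low values, where 10.6% of the probe sets kept passed, and 3 with the 3' to 5' control difference as a covariate, where 2.43% passed. It was 2 without the low-correlation arrays and 0 with blocks of title numbers as a covariate (0.623% of all probe sets passed), with 5 principal components as covariates (0.0543%) and, in an alternative added after seeing the data, with blocks and without the low-correlation arrays (0.355%). Fewer probe sets passed over the whole table under each of these 4 than the 4.61% of the main setting; the cause was not tested. Leaving out the 13 arrays without spike-in signal was also added after seeing the data. For fat area the count was 0 under all 15 alternatives. The drip loss slopes of the 4 genes that passed kept their sign under all 15 alternatives. These genes were chosen by that slope in the same animals, so the kept sign gives no separate support. Of the 40 genes, 16 changed the sign of their drip loss slope under at least 1 alternative, 11 of them with 5 principal components, and 14 that of their fat area slope. Among the catalytic and inducible genes and the 4 that passed, the changes were these. For drip loss, PSMB5 was -0.0042 and PSMB10 -0.017 with 5 principal components, PSMB10 -0.00098 with blocks and without the low-correlation arrays, and PSMB8 0.0071 without the arrays lacking spike-in signal. For fat area, PSMB5 was -0.0013 without the low-correlation arrays, PSMB8 0.018 and PSMB10 0.0064 with 5 principal components and 0.010 and 0.0012 with immune markers, and PSMD4 0.00040, 0.0021 and 0.0024 with 5 principal components, the other trait and the Y-linked EIF1AY as covariates. The correlation of the PSMB8 to PSMB5 log ratio with fat area became 0.00013 with immune markers as a covariate. The planned search for promoter motifs was not run. No paired analysis was possible because all animals form 1 group.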
